A study of Mus musculus with 21 samples.

Results

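The 9 mouse genes described here control programmed cell death: Bcl2l10, Mcl1, Bcl2l1, Bax, Bak1, Bid, Birc2, Birc5 and Xiap. They were taken as a list by name, and transcripts were given to them by exon overlap on the same strand with GENCODE gene models (mouse release M21, mm10). Of the 9 genes, 8 had at least 1 transcript in the merged long-read set, out of 10917 annotated genes that had one. Bak1 had none, in the merged set or in the long-read set of any stage, so it has no value below. The 8 measured genes held 19 of the 22612 merged transcripts, and all 8 passed the filter on low values.

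Apoptosis by the mitochondrial route is set by the balance within the BCL2 family. BAX and BAK1 make pores in the outer mitochondrial membrane, BH3-only proteins such as BID promote pore formation, and MCL1 and BCL2L1 hold the pore formers or BH3-only proteins in check. BCL2L10 is grouped with them here by structure, although both protective and death-promoting roles have been described for the mouse protein. XIAP blocks caspases directly, BIRC2 is a ubiquitin ligase of the same inhibitor-of-apoptosis family, and BIRC5 (survivin) is above all a subunit of the chromosomal passenger complex, which guides chromosome segregation and cytokinesis. BCL2L10, also called DIVA or BOO, is known as a gene of the ovary and oocyte.

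The libraries were amplified cDNA (Smart-seq2) of pooled, untreated cells: sperm from the epididymis of DBA/2J males, oocytes arrested in the second meiotic division from superovulated C57/BL6J females, and embryos of ♂DBA/2J x ♀C57/BL6J matings. The sample labels name the males DBA/2J, whereas the protocol names DBA/2N. Females were 3 to 5 weeks old. Oocytes were lysed at 20 h after the hCG injection, 1-cell embryos at 24 to 26 h, 2-cell at 46 to 48 h, 4-cell at 54 to 58 h, 8-cell at 68 to 70 h and blastocysts at 94 to 96 h, the embryos having been cultured in KSOM medium from 20 h on. Each of the 7 stages had 2 short-read libraries and 1 long-read pool. Per the study's description the 2 libraries of a stage are separately collected batches, whose cDNA was also mixed for the long-read pool. Whether the batches differed in animals is not given in the sources used here. The p-values rest on the spread between collections, pooled over the stages fitted together. Each pool of embryos also mixes blastomeres, and in such bulk RNA fewer cells with a transcript and less of it per cell cannot be told apart.

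A value here is the TPM (a transcript level scaled per length and to a fixed total in each library) that the authors gave each merged transcript, summed over the transcripts of a gene. The number of reads behind a value cannot be had from TPM, so the depth is unknown. Differences between stages were fitted by limma, as log2(TPM + 1), in the 12 libraries from oocyte to blastocyst together, and a gene was called at an adjusted p under 0.05. For genes with low TPM the difference comes out too small on this scale. The median SD between the 2 libraries of a stage, over genes, ran from 0.18 on the log2 scale in 4-cell to 0.98 in 2-cell, and was 0.82 in sperm. The 2-cell libraries stood apart from each other: the 4 markers of the 2-cell stage summed to 14.3 TPM in replicate 1 and 288 TPM in replicate 2, and the 7 oocyte markers to 115 and 1323 TPM. In 4-cell the 2-cell markers summed to 29.8 and 33.1 TPM and the oocyte markers to 152.7 and 157.5 TPM. Both sums of 2-cell replicate 1 were thus below those of 4-cell. Its 2-cell marker sum was also below that of 8-cell replicate 1, at 18.85 TPM. The marker sums of sperm, oocyte and blastocyst were each highest in the libraries of that label, though single markers did not all follow. Gdf9, at 4176 and 15568 TPM, made up most of the oocyte sum. Zp2, Zp3, Bmp15 and Nlrp5 of that list were highest in a 1-cell or 2-cell library. Tfap2c of the blastocyst list was highest in 2-cell replicate 1, at 229.8 TPM. Sperm markers summed to 17339 and 21188 TPM in sperm and to at most 17.1 TPM in other libraries. None of the 8 markers of cumulus and granulosa cells had a merged transcript, so these cells could not be looked for. The sperm libraries also held the 4 white blood cell markers at 77338 and 15997 TPM, against at most 110 TPM elsewhere. In sperm replicate 1 these were above the sperm markers.

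**Figure D1:**
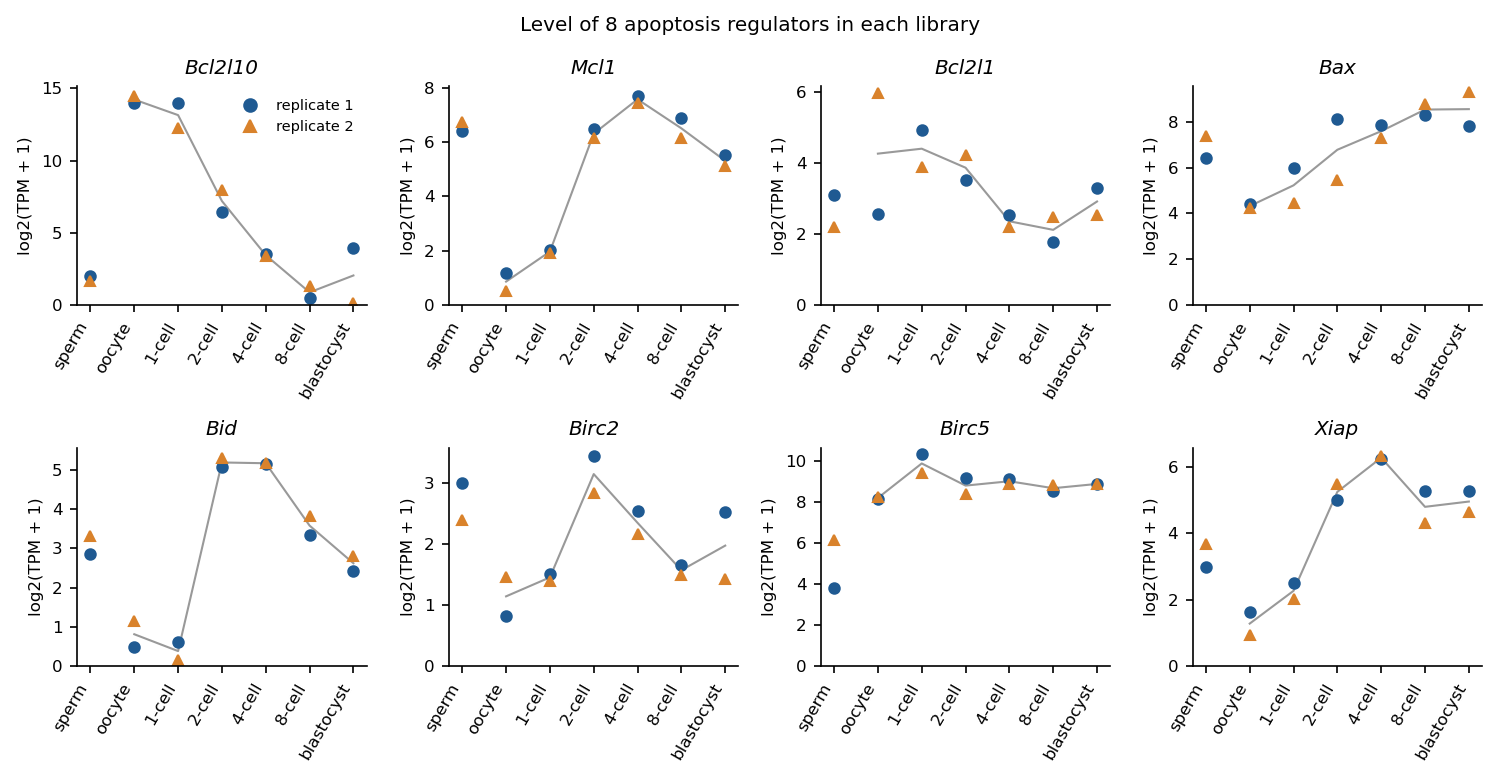
Level of each of the 8 measured genes in the 14 short-read libraries (y axis, log2(TPM + 1); x axis, stage; circles, replicate 1; triangles, replicate 2; the line joins the means of the log2 values from oocyte to blastocyst). Bcl2l10 is highest in the oocyte and 1-cell libraries, while Mcl1, Bid and Xiap are lowest there and lie above them in both 2-cell libraries.

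The transition with most calls was 1-cell to 2-cell, the period of the major wave of embryonic transcription in the mouse. Mcl1, Bid, Xiap and Birc2 rose and Bcl2l10 fell, 5 of the 8 genes, against 32.3% of the 10000 genes tested (26.1% higher and 6.2% lower). The median log2 change of the 8 was 1.62, beside 0.72 over all genes. After quantile normalization, which sets the median of all genes near 0, 47.5% of the calls over all genes were higher in place of 80.8%, and the 4 largest of the 5 changes were still called, with Birc2 at 0.29 (adjusted p = 0.76). Mcl1, Bid, Xiap and Birc2 had no long-read transcript in the oocyte or 1-cell pool, and Bcl2l10 had none from 4-cell on. The calls are thus not independent of how the transcripts were found. How far this holds for all genes was not tested.

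The other transitions had no call among the 8, that is 0 at the oocyte to 1-cell step (0.38% of all genes), the 2-cell to 4-cell step (3.4%), the 4-cell to 8-cell step (1.67%) and the 8-cell to blastocyst step (3.0%). By limma's unadjusted p under 0.05 these steps had 1 (Birc5), 1 (Bcl2l10), 3 (Bid, Bcl2l10 and Xiap) and 0 of the 8 genes. The medians of all genes moved by 0.23, 0.04, -0.34 and -0.14 on the log2 scale, against which the changes below should be read. Between the ends of the series, oocyte to blastocyst, Mcl1, Bax, Xiap and Bid rose and Bcl2l10 fell, 5 of 8 against 53.4% of all genes (35.4% higher, 18.0% lower). The median of all genes was 0.82 higher in blastocyst. Of the calls over all genes 66.3% were higher, or 50.2% after quantile normalization.

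**Figure D2:**
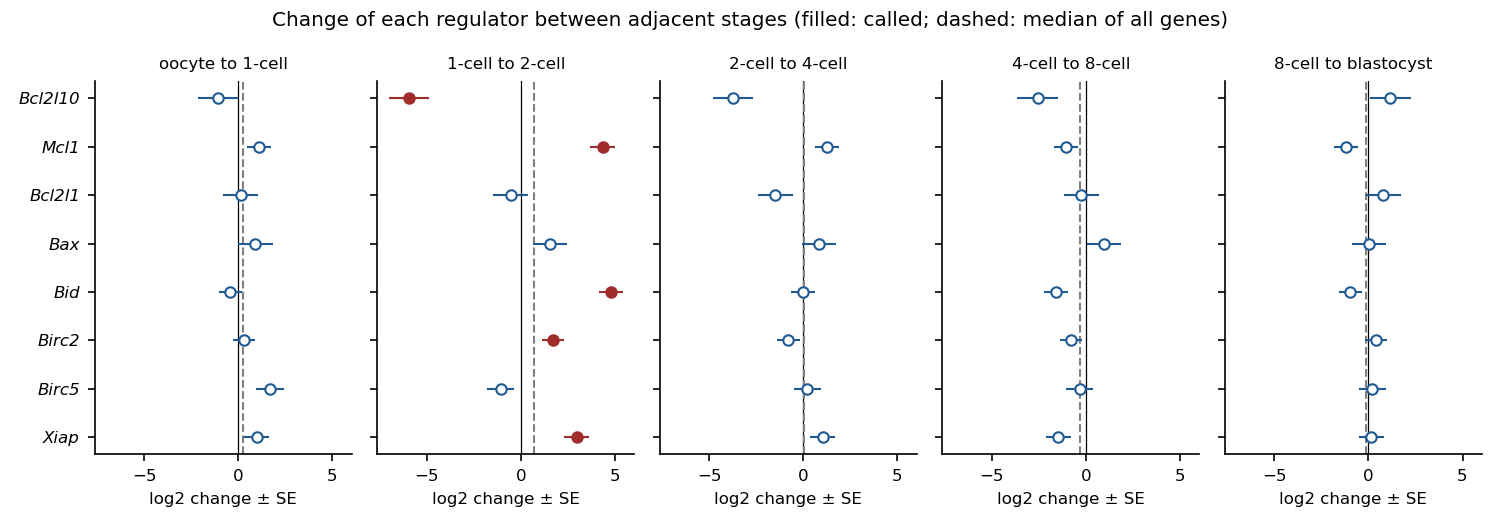
Log2 change of each gene in each of the 5 transitions (x axis, log2(TPM + 1) scale, with the standard error from limma as bars; filled points, adjusted p under 0.05; solid line, no change; dashed line, median of all genes). In the 1-cell to 2-cell panel Bcl2l10 lies at -5.95 and Bid, Mcl1, Xiap and Birc2 at 4.79, 4.34, 2.97 and 1.69, all filled, and the other panels hold no filled point.

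Bcl2l10 (chr9:75347758-75351632, + strand) was the most abundant of the 8 before cleavage. Its level was 16455 and 22401 TPM in the oocyte libraries, 16658 and 4955 in 1-cell, 84.0 and 252 in 2-cell, 10.6 and 9.23 in 4-cell, 0.365 and 1.44 in 8-cell, 14.4 and 0.0917 in blastocyst and 3.03 and 2.11 in sperm. Among annotated genes it was in place 7 and 2 in the oocyte libraries and in place 3 and 12 in 1-cell, where it took 1.67% and 0.496% of all TPM. The oocyte and 1-cell libraries overlapped, and every later library lay below both stages. From 1-cell to 2-cell it fell by 5.95 on the log2 scale (SE 1.07, adjusted p = 0.00102, limma), and by 5.08 to 6.83 over the 21 alternatives, in all of which it was called. The TPM means differed 64.4-fold, or 29.5-fold without 1-cell replicate 1, 99.3-fold without 1-cell replicate 2, 42.9-fold without 2-cell replicate 1 and 129-fold without 2-cell replicate 2. The next step, 2-cell to 4-cell, was a log2 change of -3.75 (SE 1.07, adjusted p = 0.0627), the libraries not overlapping. It was called in 4 of the 21 alternatives, 3 of which left out a library (2-cell replicate 1, blastocyst replicate 1 or blastocyst replicate 2). Of the blastocyst libraries, 1 lay above and 1 below both 8-cell libraries. Over the whole course, oocyte to blastocyst, it fell by 12.19 (SE 1.07, adjusted p = 3.23e-06).

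The fall of Bcl2l10 came while the level of Mcl1 (chr3:95658788-95663176, + strand), a short-lived protein that many cells need to survive, went the other way. Mcl1 stood at 1.27 and 0.442 TPM in the oocyte libraries, 3.09 and 2.71 in 1-cell, 88.2 and 69.1 in 2-cell, 207 and 172 in 4-cell, 115 and 69.2 in 8-cell, 44.2 and 33.5 in blastocyst and 82.8 and 105 in sperm. Every library from 2-cell on was above every oocyte and 1-cell library, with the highest values in 4-cell. From 1-cell to 2-cell Mcl1 rose by 4.34 (SE 0.65, adjusted p = 0.000332), 27.1-fold between TPM means, and this was called in all 21 alternatives, at 3.51 to 4.71. The levels depended on the transcripts counted: over the long-read transcripts of each stage alone, Mcl1 averaged 89.5 TPM in 2-cell, 116.7 in 4-cell, 59.3 in 8-cell, 8.61 in blastocyst and 55.2 in sperm, in place of 78.6, 189.6, 92.3, 38.9 and 94.1. From 8-cell to blastocyst the libraries did not overlap, and the change of -1.19 (SE 0.65, adjusted p = 0.443) was not called.

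Bcl2l1 (chr2:152780668-152831728, - strand), which encodes BCL-XL, was called in none of the 5 transitions. Its values were 4.91 and 61.0 TPM in oocyte, 29.4 and 13.7 in 1-cell, 10.4 and 17.6 in 2-cell, 4.77 and 3.53 in 4-cell, 2.39 and 4.52 in 8-cell, 8.80 and 4.78 in blastocyst and 7.53 and 3.55 in sperm. The oocyte libraries differed from each other more than the stages that followed, and together their range held the values of 1-cell and 2-cell. From oocyte to blastocyst the change of -1.35 (SE 0.93, adjusted p = 0.236) was called only after quantile normalization and without oocyte replicate 1.

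Bax (chr7:45461697-45466898, - strand), a pore former, increased over the series by another course. It was at 20.3 and 17.6 TPM in oocyte, 62.7 and 20.9 in 1-cell, 276 and 42.4 in 2-cell, 234 and 156 in 4-cell, 314 and 434 in 8-cell, 221 and 633 in blastocyst and 83.3 and 164 in sperm. All libraries from 4-cell on were above all oocyte and 1-cell libraries, while 2-cell replicate 2 lay between the 1-cell values. From oocyte to blastocyst Bax rose by 4.24 (SE 0.91, adjusted p = 0.00146), 22.5-fold between means and 11.7-fold without blastocyst replicate 2, and was called in all 21 alternatives. The change from 1-cell to 2-cell was 1.55 (SE 0.91, adjusted p = 0.211) and depended on a single library: it was 2.89 (adjusted p = 0.0221) without 2-cell replicate 2 and 0.22 (adjusted p = 0.873) without 2-cell replicate 1. All 3 Bax transcripts also overlap the annotated gene Gm45808 on the same strand, so reads of the 2 genes could not be told apart. Over the long-read transcripts of the 2-cell stage alone, Bax averaged 239.8 TPM there in place of 159. The only Bax transcript in that set leaves out an exon (TCONS_00018882 below), and the whole form is not in it.

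Bid (chr6:120891930-120916853, - strand), a BH3-only protein that caspase cleavage activates, made the largest rise of the 8 from 1-cell to 2-cell. It was listed at 0.401 and 1.21 TPM in oocyte, 0.539 and 0.113 in 1-cell, 32.3 and 38.5 in 2-cell, 34.5 and 35.0 in 4-cell, 9.13 and 13.1 in 8-cell, 4.37 and 6.04 in blastocyst and 6.18 and 8.88 in sperm. The 2-cell and 4-cell libraries lay close together, above all others, and 8-cell and blastocyst lay between them and the oocyte. From 1-cell to 2-cell Bid rose by 4.79 (SE 0.62, adjusted p = 0.000179), and the TPM means differed 109-fold. Both 1-cell libraries were under 1 TPM, and the fold was 314 without 1-cell replicate 1 and 65.7 without 1-cell replicate 2. All 21 alternatives called it, at 4.02 to 6.58. From oocyte to blastocyst it rose by 1.80 (SE 0.62, adjusted p = 0.0243), and the call was lost after quantile normalization (0.60), without oocyte replicate 1 and without blastocyst replicate 2. From 4-cell to 8-cell the libraries did not overlap and the change was -1.58 (SE 0.62, adjusted p = 0.228).

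Among the inhibitor-of-apoptosis genes, Xiap (chrX:42059679-42109656, + strand) had a course like that of Mcl1 when its transcripts were summed. Its values were 2.11 and 0.907 TPM in oocyte, 4.68 and 3.08 in 1-cell, 31.1 and 43.6 in 2-cell, 73.9 and 78.0 in 4-cell, 37.8 and 18.8 in 8-cell, 37.1 and 24.1 in blastocyst and 6.90 and 11.7 in sperm. No 1-cell library reached any later embryo library, and 4-cell was highest. That maximum came from TCONS_00021907, a single exon without coding bases, at 2.86 and 14.6 TPM in 2-cell and 48.5 and 53.1 in 4-cell. The spliced TCONS_00021906 was highest in 2-cell, at 28.2 and 29.1 TPM, and at 25.4 and 24.9 in 4-cell. The rise from 1-cell to 2-cell was 2.97 (SE 0.67, adjusted p = 0.00442), 9.62-fold between means, and 3.67 (SE 0.67, adjusted p = 0.000462) from oocyte to blastocyst. Over the long-read transcripts of each stage alone, Xiap averaged 26.95 TPM in 2-cell and 12.4 in blastocyst, in place of 37.3 and 30.6. The rise at 2-cell was called in 19 of 21 alternatives and not in the fit on the 4 libraries of these stages or in that with weights by stage. Both Xiap transcripts were found only in the 2-cell and blastocyst pools. The Xiap calls are thus not independent of how its transcripts were found.

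Birc2 (chr9:7818227-7837064, - strand) stayed low, between 0.773 and 9.92 TPM in all libraries. It was at 1.86 and 1.63 TPM in 1-cell and 9.92 and 6.16 in 2-cell, with no overlap. In the fit over transcripts its only transcript, TCONS_00021165, was not called (change 1.69, adjusted p = 0.0568, limma). In the fit over genes the change of 1.69 (SE 0.59, adjusted p = 0.0411) was called, yet in only 7 of 21 alternatives. The call was lost without oocyte replicate 1 or either library of 1-cell, 4-cell or 8-cell, and without 2-cell replicate 1, where the change was 1.39 (adjusted p = 0.0805).

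Birc5 (chr11:117849251-117855743, + strand) was at 281 TPM or more in every library from oocyte to blastocyst. It was at 281 and 302 TPM in oocyte, 1277 and 683 in 1-cell, 578 and 338 in 2-cell, 554 and 474 in 4-cell, 362 and 452 in 8-cell, 468 and 468 in blastocyst and 13.1 and 69.7 in sperm. The 1-cell libraries were the highest and the oocyte libraries the lowest of the 12 from oocyte to blastocyst. From oocyte to 1-cell the change was 1.68 (SE 0.72, adjusted p = 0.472), and from 1-cell to 2-cell it was -1.08 (SE 0.72, adjusted p = 0.275), both without overlap and neither called. Of its partners in the passenger complex, 1 was called in the latter transition, and differences between the partners were not tested. Aurkb, the kinase of the complex in dividing somatic cells, rose by 3.00 (adjusted p = 0.00522), from 11.1 and 2.68 TPM to 61.9 and 44.3. That call was lost in 3 of 21 alternatives, one of them without 1-cell replicate 2. Aurkc, its germ cell counterpart, changed by -2.40 (adjusted p = 0.0577), Cdca8 by -1.37 (adjusted p = 0.239) and Incenp by 0.81 (adjusted p = 0.411).

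From 4-cell to 8-cell, 7 of the 8 genes had a change below 0, all but Bax, beside 63.6% of all genes. In 7 of the 8 the libraries did not overlap, all but Bcl2l1, and neither did they in 70.3% of all genes. The median change was -0.92, beside -0.34 over all genes. These 2 stages had the closest replicates, and the shared spread of 12 libraries was wider than theirs. In a fit on these 4 libraries alone, 4 genes were called: Bcl2l10 (adjusted p = 0.00369), Bid (adjusted p = 0.0104), Xiap (adjusted p = 0.024) and Mcl1 (adjusted p = 0.0445), beside 37.9% of all genes in that fit. Under weights by stage, Birc2 was called too (adjusted p = 0.0433), making 5 of 8 beside 39.2% of all genes.

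Sperm was compared with the oocyte in a fit of all 14 libraries. The 7 genes called, against 53.6% of 10735 genes (36.2% higher in sperm and 17.4% lower), were Mcl1, Bax, Bid, Xiap and Birc2, all higher in sperm, and Bcl2l10 and Birc5, both lower. The median of all genes was 0.90 higher in sperm, and 67.6% of the calls were higher, or 49.8% after quantile normalization. Of the 7 calls that scaling kept 3, those of Mcl1, Bcl2l10 and Birc5, and it added Bcl2l1. Mcl1 rose by 5.70 (SE 0.69, adjusted p = 5.99e-06), and Bcl2l10 fell by 12.41 (SE 1.04, adjusted p = 2.11e-07). Birc5 fell by 3.21 (SE 0.88, adjusted p = 0.00561), and without sperm replicate 1 it was not called (adjusted p = 0.0728). Bax changed by 2.56 (adjusted p = 0.0292), Bid by 2.26 (adjusted p = 0.00877), Xiap by 2.04 (adjusted p = 0.0226) and Birc2 by 1.55 (adjusted p = 0.0493). Of these 4, Bax was called in 17 of 23 alternatives and lost without sperm replicate 2 or either oocyte library, Bid in 20 and lost without oocyte replicate 1, Xiap in 18 and lost without sperm replicate 2 or oocyte replicate 2, and Birc2 in 8. The white blood cell markers were 77338 and 15997 TPM in these 2 sperm libraries and 24.0 and 5.40 TPM in the oocyte libraries, with Cd74 alone at 71096 and 14459 TPM in sperm, and 2 of 4 epididymal markers had a transcript and summed to 2037 and 347 TPM. Their part in the sperm values of Mcl1, Bax, Bid, Xiap and Birc2 was not tested.

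**Figure D3:**
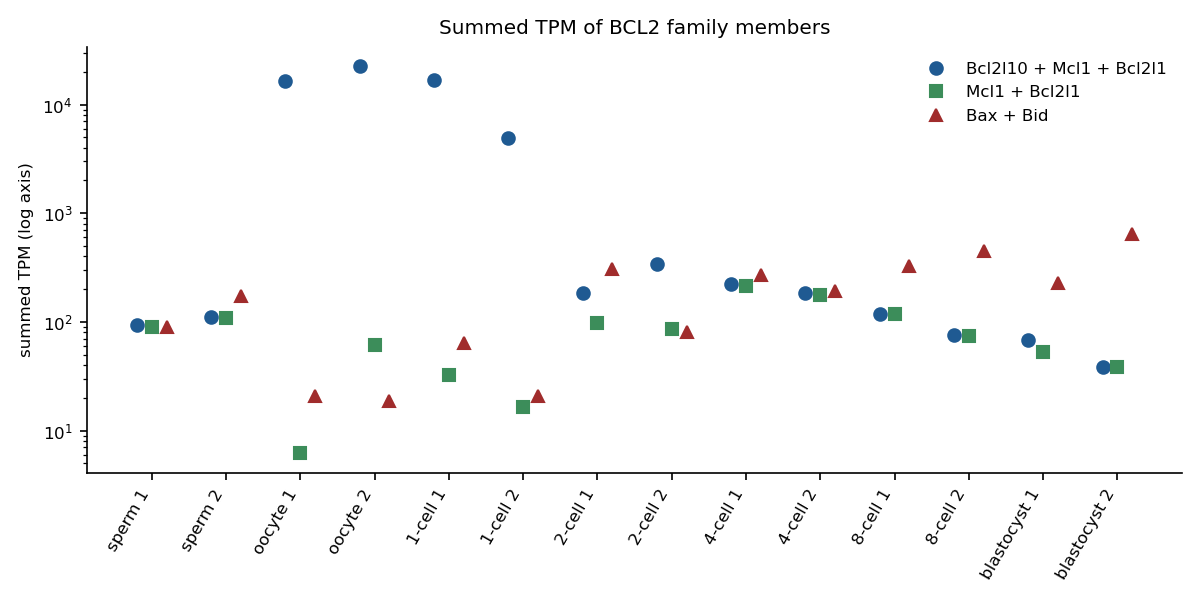
Summed TPM in each library (y axis, log axis; x axis, the 14 libraries) of Bcl2l10, Mcl1 and Bcl2l1 (circles), of Mcl1 and Bcl2l1 without Bcl2l10 (squares), and of Bax and Bid (triangles). The circles are far above the triangles in oocyte and 1-cell and below them in both 8-cell and both blastocyst libraries.

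Added together, Bcl2l10, Mcl1 and Bcl2l1 had 795 and 1192 times the TPM of Bax and Bid in the oocyte libraries and 264 and 237 times in 1-cell. In 2-cell the 2 libraries lay on opposite sides of 1, at 0.592 and 4.18. The ratio was 0.826 and 0.966 in 4-cell, 0.365 and 0.168 in 8-cell, 0.299 and 0.06 in blastocyst and 1.04 and 0.643 in sperm. Over transcripts with the whole coding sequence alone, which leaves out all Mcl1, the log2 ratio moved from -0.27 and -0.05 to -3.97 and -3.76 in 4-cell and from -1.44 and -2.56 to -6.39 and -6.05 in 8-cell. Without Bcl2l10, that is for Mcl1 and Bcl2l1 over Bax and Bid, it was 0.299 and 3.26 in oocyte, 0.513 and 0.78 in 1-cell, 0.32 and 1.07 in 2-cell and 0.787 and 0.918 in 4-cell, so the oocyte and 1-cell ratios rest on Bcl2l10, whose role in the mouse is not settled. Bak1 has no value and is not in the sums, and because the genes were chosen with results known the ratios have no test.

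The isoforms were then taken apart, because each long-read transcript gives the exons joined in it. Some of these transcripts are partial, among them all of Mcl1, Birc2 and Xiap. From 1-cell to 2-cell 7 of the 19 transcripts were called, 5 higher and 2 lower, against 28.0% of the 20250 transcripts tested (22.9% higher, 5.11% lower). The calls were 2 Bcl2l10 transcripts that fell and 1 each of Mcl1, Bid, Xiap, Bax and Birc5 that rose. None of the 5 that rose was seen in the oocyte or 1-cell pool. The calls are thus not independent of how the transcripts were found. In the other transitions 0 of 19 were called, against 2.0% of all transcripts at the oocyte to 1-cell step, 2.63% at the 2-cell to 4-cell step, 3.13% at the 4-cell to 8-cell step and 2.11% at the 8-cell to blastocyst step. By limma's unadjusted p under 0.05 these steps had 2, 5, 5 and 1 of the 19.

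**Figure D4:**
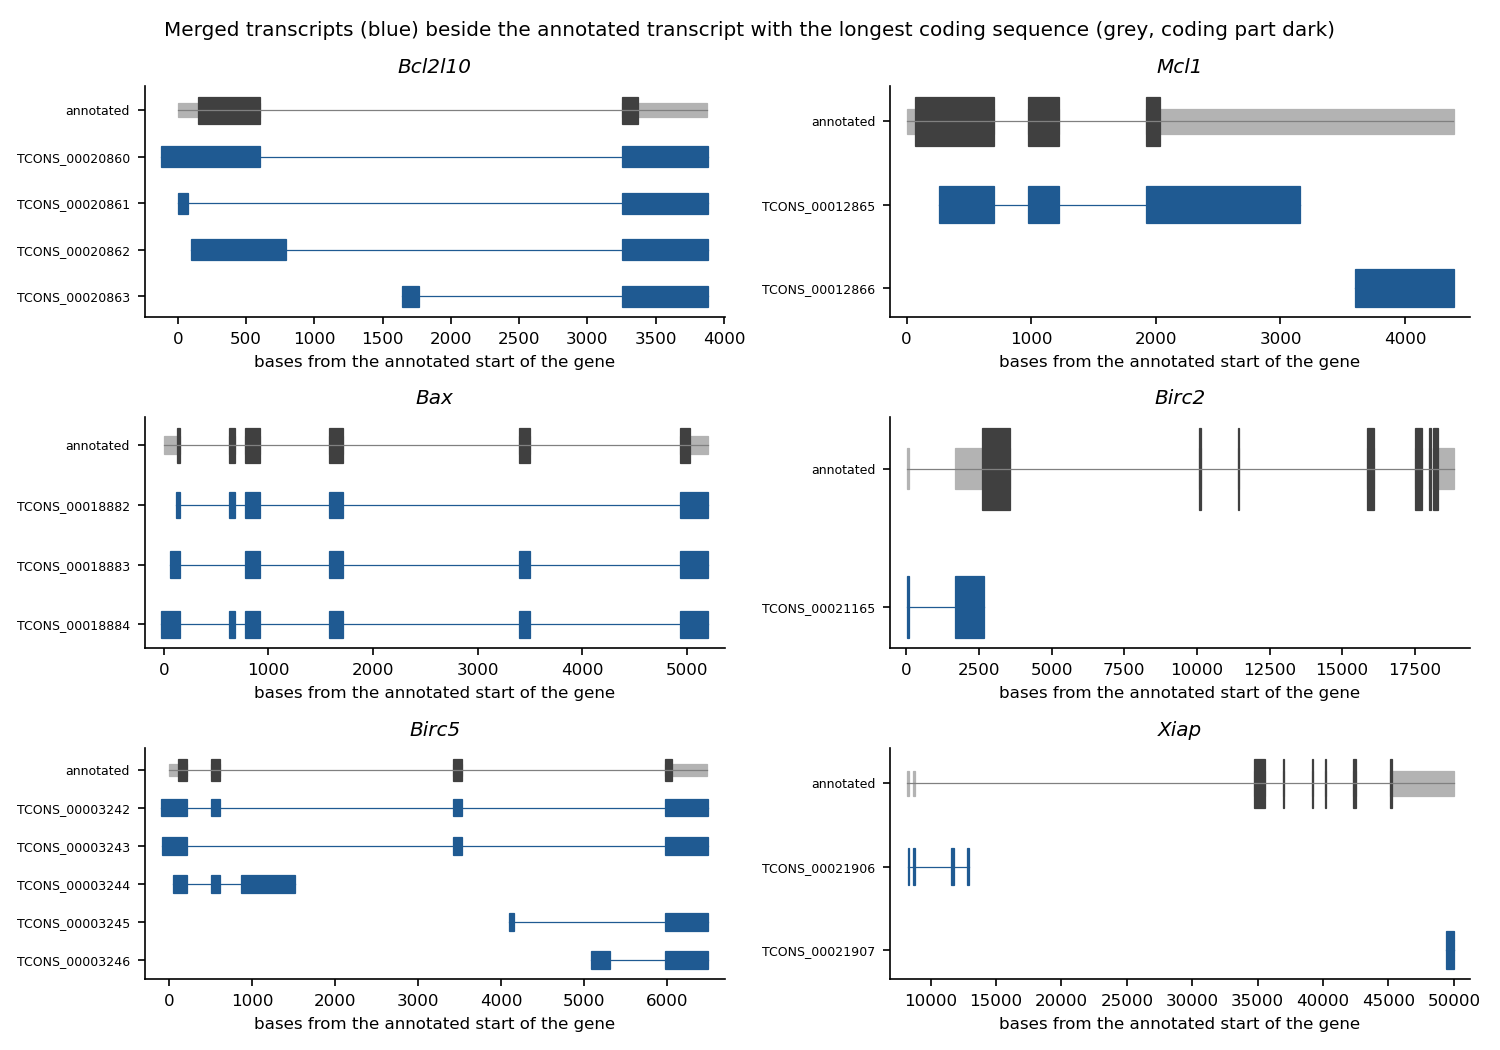
Exons of the merged transcripts (blue boxes, introns as lines) of Bcl2l10, Mcl1, Bax, Birc2, Birc5 and Xiap, to scale within each gene (x axis, bases from the annotated start of the gene in its own direction), under the annotated transcript with the longest coding sequence (grey, coding part dark). The Mcl1 transcripts miss the first coding bases, that of Birc2 reaches only into the first coding exon, and those of Xiap hold none.

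Bcl2l10 had 4 transcripts with 1 shared second exon. The chief one, TCONS_00020860, holds the whole coding sequence of 573 bases, with an open frame of 191 codons. TCONS_00020861 splices from a site inside the annotated first exon, 71 bases before the start codon, to the same second exon and so leaves out the start codon, covering 20.9% of the coding bases. The exon joins of the 2 forms are shown because they tell the forms apart, with the bases of the second exon in capitals (GRCm38, the assembly of mm10; chr9:75348336-75348355 or chr9:75347818-75347832 joined to chr9:75351011-75351030 or chr9:75351011-75351025, + strand, sequence of the GENCODE transcript):
TCONS_00020860: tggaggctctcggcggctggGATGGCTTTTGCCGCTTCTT
TCONS_00020861: ttcccaaatgtccagGATGGCTTTTGCCGC

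The form without the start codon was uneven between replicates. TCONS_00020861 was at 63.2 and 5682 TPM in oocyte, and at 6.67 and 848 TPM in 1-cell, or 0.384% and 25.4%, and 0.04% and 17.1%, of the gene's TPM. In both stages it was high in replicate 2 and low in replicate 1. The whole form was at 16006 and 16378 TPM in oocyte and 16377 and 4001 TPM in 1-cell, and from 1-cell to 2-cell it fell by 5.99 (SE 1.15, adjusted p = 0.00299). TCONS_00020862, whose first exon runs 192 bases past the annotated splice site, fell by 4.92 (SE 0.71, adjusted p = 0.00089), from 261 and 95.9 TPM to 2.46 and 7.04. This form was found only in the oocyte and 1-cell pools, mixed from cDNA of the same batches. Its fall is thus not independent of how it was found. TCONS_00020863, which begins at another first exon of 126 bases, was between 5.85 and 39.2 TPM in oocyte and 1-cell and is listed at 0 in 2-cell replicate 1 and at 11.3 TPM in replicate 2.

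Bax had the whole form TCONS_00018884, with an open frame of 192 codons, and 2 forms that each leave out 1 exon. TCONS_00018882 leaves out an exon of 105 bases (chr7:45463399-45463503), which is 35 codons, so the frame goes on and gives 157 codons. The exon and the joins of the forms with and without it are shown, since this form was listed in no oocyte or 1-cell library (GRCm38, - strand; capitals mark the bases after the join, which start at the left-out exon in the whole form and at the last exon in the other):
Bax left-out exon: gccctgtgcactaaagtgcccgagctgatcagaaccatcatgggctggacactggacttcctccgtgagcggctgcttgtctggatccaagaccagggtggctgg
TCONS_00018884: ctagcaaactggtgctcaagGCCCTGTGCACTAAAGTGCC
TCONS_00018882: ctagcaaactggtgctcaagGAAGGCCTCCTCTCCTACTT

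TCONS_00018882 of Bax is listed at 0 in both oocyte and both 1-cell libraries, at 14.4 and 7.13 TPM in 2-cell, 6.85 and 3.60 in 4-cell, 5.09 and 3.66 in 8-cell, and 0.979 and 4.69 in blastocyst. In sperm it is listed at 0 and at 2.28 TPM. Both 2-cell libraries were above every other library. This form entered the merged set only through the 2-cell pool, which was mixed from cDNA of the same 2-cell batches. A high value at 2-cell is thus not independent of how the form was found, and its call is no separate support. The rise from 1-cell to 2-cell was called (adjusted p = 0.00247) and was so in all 19 alternatives run for transcripts. With the 1-cell libraries listed at 0 it has no fold. It made up 5.21% and 16.8% of Bax TPM in 2-cell and at most 2.92% in the later embryo libraries. TCONS_00018883, which leaves out another exon of 52 bases (chr7:45466220-45466271), no multiple of 3, was between 1.40 and 26.0 TPM in all libraries and was called in no transition. The whole form made up between 72.4% and 95.5% of Bax in every library, and its change from 1-cell to 2-cell was 1.44 (SE 0.97, adjusted p = 0.29).

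Birc5 had 5 transcripts. TCONS_00003242 is the whole form of 140 codons. TCONS_00003243 leaves out the second exon, of 110 bases (chr11:117849754-117849863), which is no multiple of 3 bases, and its frame from the annotated start codon meets a stop after 40 codons. The exon and the joins are shown because the form without it had its largest share at the 2-cell stage (GRCm38, + strand; capitals mark the bases after the join, which start at the second exon in the whole form and at the third in the other):
Birc5 left-out exon: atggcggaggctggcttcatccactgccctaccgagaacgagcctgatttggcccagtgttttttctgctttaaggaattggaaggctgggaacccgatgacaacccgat
TCONS_00003242: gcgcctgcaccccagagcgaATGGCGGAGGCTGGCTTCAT
TCONS_00003243: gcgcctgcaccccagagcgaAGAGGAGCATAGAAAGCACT

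The share of TCONS_00003243 in Birc5 was 2.91% and 3.22% in oocyte, 3.75% and 4.25% in 1-cell, 16.1% and 19.7% in 2-cell, 9.15% and 11.6% in 4-cell, 6.58% and 3.29% in 8-cell and 4.24% and 4.34% in blastocyst. The 2-cell and 4-cell libraries lay above all others, without overlap between these 2 stages. In TPM it was at 47.8 and 29.0 in 1-cell and 93.2 and 66.7 in 2-cell, a change of 1.06 (SE 0.66, adjusted p = 0.248), while the whole form changed by -1.50 (SE 0.74, adjusted p = 0.151). TCONS_00003244, which ends in another last exon and holds 52.6% of the coding bases, rose from 0.804 and 0.471 TPM in 1-cell to 44.6 and 22.2 in 2-cell, by 4.32 on the log2 scale (SE 0.62, adjusted p = 0.00089). This form was found only in the 4-cell pool, after the rise, so its call is not independent of how it was found. It made up 7.73% and 6.55% of Birc5 in 2-cell, at most 4.05% in the later embryo libraries, and 11.1% and 26.4% in sperm. TCONS_00003245 and TCONS_00003246 hold only the last 19.3% of the coding bases, with no start codon.

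**Figure D5:**
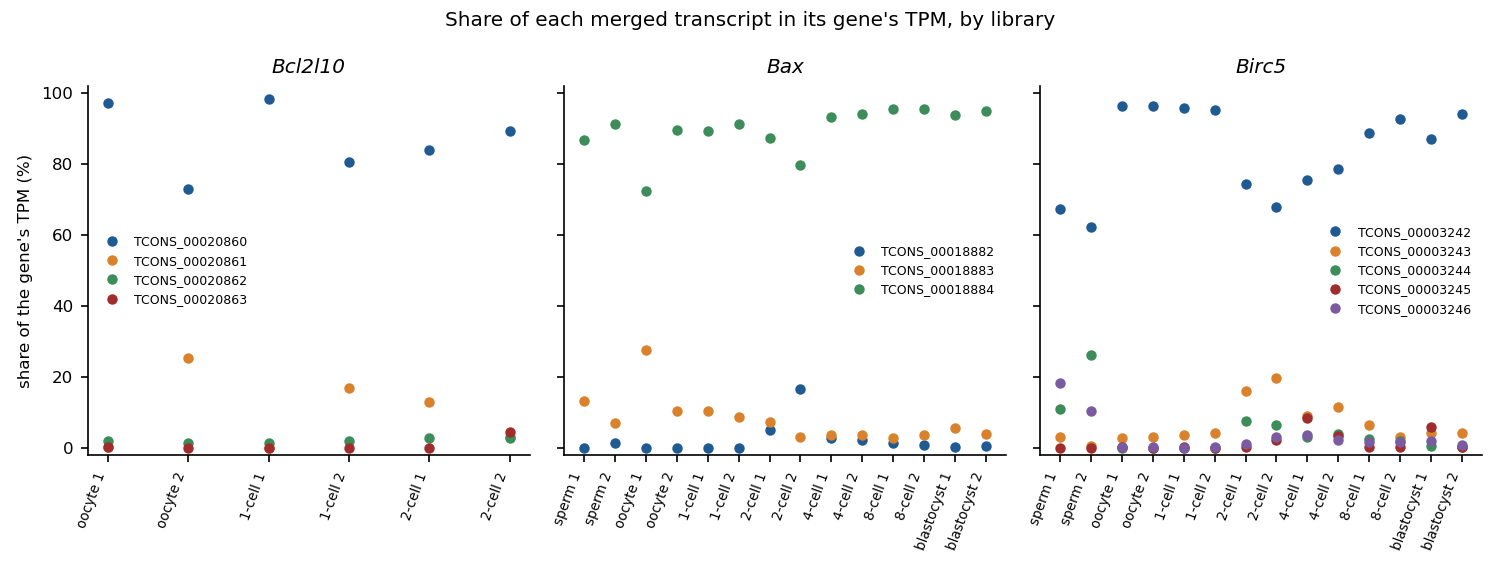
Share of each transcript in the TPM of its gene (y axis, percent; x axis, libraries; 1 point per library) for Bcl2l10, in oocyte, 1-cell and 2-cell only, and for Bax and Birc5 in all 14 libraries. The Birc5 form without its second exon, TCONS_00003243, makes up 16.1% and 19.7% in 2-cell against 4.25% or less in oocyte and 1-cell.

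For some of the genes no measured transcript held the whole coding sequence. The longer Mcl1 transcript, TCONS_00012865, begins 189 bases after the start codon and covers 81.0% of the coding sequence, and TCONS_00012866 is a single exon in the last annotated exon with no coding base. TCONS_00012865 rose from 1-cell to 2-cell by 5.00 (SE 0.65, adjusted p = 0.000646), and TCONS_00012866 changed by 1.96 (SE 0.75, adjusted p = 0.0701). The Birc2 transcript, TCONS_00021165, covers 5.45% of its coding sequence. Neither Xiap transcript holds a coding base. TCONS_00021906 lies upstream of the coding exons and rose by 3.26 (SE 0.64, adjusted p = 0.00338). It was found only in the 2-cell pool, so its call has the same limit as that of the Bax form TCONS_00018882. TCONS_00021907 lies in the last exon and changed by 1.54 (SE 1.10, adjusted p = 0.32). The levels of Mcl1, Birc2 and Xiap above are thus values given to partial transcripts, of which TCONS_00012865 has the intron chain of an annotated Mcl1 transcript. Reads of whole mRNA that share their bases could also be assigned to these transcripts. The values therefore do not show that whole coding mRNA was missing. Bcl2l1 (TCONS_00012357, 233 codons) and Bid (TCONS_00017611, 195 codons) rest on 1 transcript each with the whole coding sequence.

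The long-read pools, 1 per stage and without a replicate, saw the same genes in few transcripts. Birc5 had 20 over all 7 stages, with the whole coding sequence in each stage. Bcl2l10 had 9, of which 2 were in oocyte, 6 in 1-cell and 1 in 2-cell, with none from 4-cell on or in sperm. Bax had 6, Mcl1 5, Bcl2l1 3, Bid 3, Xiap 2 and Birc2 1, and Bak1 had 0. No Mcl1, Xiap or Birc2 transcript in any pool held the whole coding sequence. Bid was seen in sperm, 2-cell and 4-cell, each time whole. Of the 9 genes, 7 were seen in the 2-cell pool, 5 in blastocyst, 4 each in sperm, 4-cell and 8-cell, 3 in 1-cell and 2 in oocyte.

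The upstream sequences of Mcl1, Bid and Xiap are shown because these 3 genes rose together from 1-cell to 2-cell. They are 120-base stretches from the RefSeq promoter windows on GRCm38.p6, at chr3:95658601-95658720 (+ strand) for Mcl1, chr6:120916857-120916976 (- strand) for Bid and chrX:42067716-42067835 (+ strand) for 1 of the 3 Xiap start sites. The Bid stretch ends 32 bases before its RefSeq start. The stretches taken for the other Xiap start sites hold no GGGCGG on either strand and are not printed. Birc2, also called higher from 1-cell to 2-cell, is not shown. Capitals mark the GC box GGGCGG, or CCGCCC where it is on the other strand:
Mcl1: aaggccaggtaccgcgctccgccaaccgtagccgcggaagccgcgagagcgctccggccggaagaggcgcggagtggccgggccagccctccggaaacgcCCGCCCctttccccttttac
Bid: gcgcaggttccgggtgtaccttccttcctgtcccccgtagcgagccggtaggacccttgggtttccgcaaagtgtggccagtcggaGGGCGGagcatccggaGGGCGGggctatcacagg
Xiap: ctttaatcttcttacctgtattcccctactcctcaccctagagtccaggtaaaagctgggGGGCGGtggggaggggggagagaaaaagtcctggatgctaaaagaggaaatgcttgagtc

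In the 250 bases before each RefSeq start, GGGCGG on either strand occurred 1 time for Mcl1, 3 times for Bid, 2 times each for Bax and Birc5, in 2 of the 3 Xiap windows, in 1 of the 2 Birc2 windows, and in none for Bcl2l1 and Bak1. It was in 32.7% of the 32851 mouse promoter windows of this length. CCAAT, which 33.8% of all windows hold on either strand, was in no window of these genes, TATAAA (12.4%) was in 1 Xiap window, and GGATTA (6.25%) was in that of Bax. The motifs do not overlap one another, and Bcl2l10 had no entry. A match says only that these letters occur in the window.

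The wider apoptosis pathway was followed with a list of 57 further genes, of which 35 had a merged transcript and all 35 were tested. From 1-cell to 2-cell 9 rose and 1 fell, 10 of 35 beside the 32.3% of all genes (26.1% higher, 6.2% lower). The 3 of 4 measured BH3-only genes that rose, beside the 26.1% of all genes, were Bad, Pmaip1 and Bcl2l11 (BIM). The fourth, Bik, changed by -0.85 and was not called (adjusted p = 0.509, limma). The calls of Bad and Pmaip1 were lost in 6 and 5 of 21 alternatives, for both without either 1-cell library or without 2-cell replicate 2. Bcl2l11 went from 12.9 and 11.2 TPM to 69.7 and 124, by 2.85 (SE 0.70, adjusted p = 0.00687). Bok, a further pore former, rose by 2.75 (SE 0.82, adjusted p = 0.0198), a call lost without either 1-cell library or without 2-cell replicate 1. Endog, a mitochondrial nuclease, rose by 4.20 (SE 1.24, adjusted p = 0.0188), though its 2-cell libraries were at 235 and 8.11 TPM and the call was lost without 2-cell replicate 1 or either 1-cell library. Birc3, the close relative of Birc2, was the gene that fell, by 3.45 (SE 0.80, adjusted p = 0.00517), from 273 and 241 TPM to 9.99 and 49.6.

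In later steps few genes of that list were called. At the 2-cell to 4-cell step 3 were called, beside 3.4% of all genes. Casp6 rose by 3.46 (adjusted p = 0.0363) and Dffb by 2.85 (adjusted p = 0.0433), and Ripk1 fell by 2.29 (adjusted p = 0.0496), called in 9, 6 and 8 of the 21 alternatives. In limma 0 of the 35 were called at the oocyte to 1-cell, the 4-cell to 8-cell or the 8-cell to blastocyst step, and 4, 6 and 3 passed an unadjusted p under 0.05. From oocyte to blastocyst 17 rose and 5 fell, 22 of 35 beside 53.4% of all genes (35.4% higher, 18.0% lower), led by Bok at 6.40 (adjusted p = 3.12e-05) and Bad at 5.61 (adjusted p = 2.99e-05) and by Aurkc, which fell by 5.77 (adjusted p = 0.000155), and Mdm4, which fell by 5.66 (adjusted p = 0.000217). In sperm against oocyte 13 were higher and 7 lower, 20 of 35 beside 53.6% of all genes, with Tradd at 6.18 (adjusted p = 1.59e-05) and Pmaip1 at 5.87 (adjusted p = 0.000101) furthest up and Mdm4 at -6.80 (adjusted p = 3.88e-05) and Aurkc at -5.47 (adjusted p = 0.00011) furthest down. The part of the white blood cell markers, at 77338 and 15997 TPM in the same sperm libraries and 24.0 and 5.40 in oocyte, was not tested here either.

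The genes whose log2(TPM + 1) was most like that of each member over the 14 libraries, of 10735 genes, are given as a description, since libraries of a stage share that stage and are not independent. For Bcl2l10 these were D6Ertd527e (Pearson r = 0.992) and Rgs17 (0.986). For Mcl1 they were Knop1 (0.973) and Ctsz (0.972), for Bid Ccdc137 (0.979) and Gtf3c5 (0.978), and for Xiap Bzw1 (0.980) and Gabpa (0.971). Bax was most like Galk1 and Txnl4a (0.971 and 0.970) and Birc5 most like Diaph3 (0.942) and Rbpms2 (0.937). For Birc2 they were Fem1a (0.928) and Htatsf1 (0.913), and for Bcl2l1 Chfr (0.946) and Rnf220 (0.895).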

How the data were processed

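Per the study's methods, GMAP placed the long-read sequences on mm10, cDNA_Cupcake collapsed redundant isoforms and Cuffmerge joined the stages. The authors then quantified the merged transcripts in each short-read library with Salmon. The submitters' processing notes also name GSNAP, STAR and Cufflinks. The deposited values are TPM per transcript, over the long-read transcripts only, so reads of transcripts outside that set go uncounted or elsewhere. No counts or depths were used, so no precision can be set by depth.

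Each merged transcript was assigned to the GENCODE M21 gene with the largest exon overlap on its strand (18333 of 22612 assigned), and TPM was summed per gene. The methods name another release for the authors' own annotation. Features that reached 1 TPM in no fewer than 2 libraries were fitted with limma (lmFit, contrasts.fit, eBayes with trend) on log2(TPM + 1), stage as the only term, over 12 libraries, or 14 for sperm, with Benjamini-Hochberg adjustment over all features. Samples were grouped by title, and the 8-cell replicate numbers follow the titles. Isoform shares, sums over genes, likeness and long-read transcripts are descriptions.

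The members, the pathway list and the markers were chosen with earlier results of these data known. All members and their transcripts are named. Of the pathway list, the called genes furthest up and furthest down, up to 2 each per comparison, are named, with the 4 passenger complex genes. A gene that this rule also selects is not reported here. Of likeness, the 2 genes with the highest r are named. Bad, Pmaip1, Bcl2l11, Bik and Bok in the 1-cell to 2-cell comparison, and the use of Bcl2l11 values there, were chosen after their values were seen.

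Alternatives were a pseudocount of 0.1, a minimum TPM of 5, no filter, quantile normalization, the 4 libraries of 2 stages, a replicate block, a spread weighted by stage, other assignment, and each library left out. A fit with loci of no annotated gene as further features was added after seeing the data. The fits were tested on simulated data. Python 3.11.15, numpy 2.4.6, pandas 2.3.3, R 4.3.3 and limma 3.58.1 were used. Protein, splicing event and strain-specific data were not analysed here.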

Additional observations from a re-analysis of the deposited data

How the results depend on the processing

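The calls of Bcl2l10, Mcl1 and Bid from 1-cell to 2-cell held in all 21 alternatives. In a fit on the 4 libraries of the 2 stages, the number of members called was 3 at 1-cell to 2-cell, 4 at 4-cell to 8-cell and 4 for oocyte to sperm, in place of 5, 0 and 7, beside 22.3%, 37.9% and 52.4% of all genes. With the spread weighted by stage these numbers were 3, 5 and 3, beside 15.3%, 39.2% and 41.4%. Quantile normalization gave 1 from 2-cell to 4-cell (Bcl2l10, beside 10.8% of all genes) and 4 from oocyte to sperm (53.3%). Member transcripts called from 4-cell to 8-cell were 5 on 4 libraries and 7 with the weights, in place of 0, beside 29.7% and 31.0% of all transcripts, and quantile normalization gave 2 from 2-cell to 4-cell (9.03%). The cause was not tested.

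With each library left out, the members called ranged from 4 to 6 in 1-cell to 2-cell, 0 to 1 in 2-cell to 4-cell, 4 to 5 in oocyte to blastocyst and 4 to 7 in oocyte to sperm (4 without oocyte replicate 2), and stayed at 0 in the other 3. Member transcripts ranged from 7 to 10 in 1-cell to 2-cell, 0 to 2 in 2-cell to 4-cell and 0 to 1 in 8-cell to blastocyst (1 without 2-cell replicate 1).

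With a replicate block, 4 members were called from 1-cell to 2-cell, 5 from oocyte to blastocyst and 6 from oocyte to sperm, and 0 elsewhere. The correlation of replicate differences between stages ran from -0.545 to 0.474. A replicate number need not mean the same batch in each stage, so whether stages shared a batch cannot be told from this.

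Counted only over transcripts with the whole coding sequence, the mean log2 ratio of Bcl2l10, Mcl1 and Bcl2l1 to Bax and Bid was -3.83 for sperm, -0.005 for 2-cell, -3.87 for 4-cell, -6.22 for 8-cell and -4.94 for blastocyst libraries, in place of -0.28, 0.65, -0.16, -2.0 and -2.88, since this leaves out all Mcl1.

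Over all genes, in the order of the 5 transitions, 38 (0 to 391 over the alternatives), 3227 (1531 to 4025), 340 (0 to 1714), 167 (0 to 3921) and 300 (24 to 801) were called. Over all transcripts the numbers were 406 (1 to 616), 5664 (2270 to 6902), 532 (0 to 2558), 633 (0 to 6269) and 427 (6 to 1128). The share of these gene calls that were higher was 86.8% from oocyte to 1-cell (55.6% after quantile normalization), 46.5% (56.7%) at 2-cell to 4-cell and 46.1% (69.3%) at 4-cell to 8-cell. With 2 libraries per stage and no depth, small changes of the members could not be resolved.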
